A study of Arabidopsis thaliana with 8 samples.

Results

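AT1G03890, AT4G36700 and AT5G55410 are 3 genes of *Arabidopsis thaliana* that were far more abundant in late than in early siliques, the pods that hold the developing seeds. AT1G03890 encodes a protein of the 12S globulin type, AT4G36700 a cupin and AT5G55410 a protein of the lipid transfer type. They were taken by locus, as 3 genes of 14228 named loci matched on the array, with 1 named probe each. Of 26912 probes in all, 12373 had no symbol, so a further probe of these genes could not be looked for among them. The genes were picked with their log2 ratios on all 8 slides in view, so their values are given as a description with no test.

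The 12S globulins, called cruciferins in *Arabidopsis*, and the vicilin-like proteins are storage proteins of the cupin superfamily, which is named for a conserved barrel fold. They are made in the maturing embryo, packed into protein storage vacuoles and broken down by the seedling as a source of nitrogen and carbon. Plant lipid transfer proteins are small, cysteine-rich and mostly secreted, and they share their fold with the 2S albumins, the other large class of storage proteins in this seed.

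Target was prepared from a single pair of RNA samples. The 90%-late sample held siliques of 6 to 10 days after pollination (DAP) with 10% early material, and the early sample held siliques of 2 to 5 DAP. The 4 regimes of target preparation, each on 2 slides, started from these samples, namely 1 round of in vitro transcription from 5 µg (IVT), 2 rounds from 50 ng (2IVT), 20 cycles of PCR from 50 ng, and labelling of 30 µg without amplification. Neither the labels nor the methods name a mutant or a treatment, and no source used here gives the accession of the plants. The 90%-late target carried Cy3 and the early target Cy5 on every slide, so stage and dye cannot be told apart. In the amplified regimes both slides shared the preparation of 90%-late target, so the spread between slides leaves that step out, and in every regime it leaves out the spread between plants. The deposited ratio was read as early over 90%-late and its sign was reversed, which makes every positive value below a transcript more abundant in 90%-late. This direction was inferred from the dyes and from the unamplified slides, where 202 probes lay beyond 10-fold towards 90%-late and 1 towards early. In whole siliques, more cells of a type and more RNA per cell cannot be told apart. A ratio also holds no level, so the abundance of one gene is not set against that of another. Between 22733 and 24403 probes had a value on a slide, and the median log2 ratio of a slide lay between -0.08 and -0.01.

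AT1G03890 reported log2 ratios of 4.53 and 5.15 on the IVT slides and 2.14 and 2.23 on the 2IVT slides. The PCR slides gave 2.46 and 2.84, and the unamplified slides gave 4.05 and 6.30. All 8 slides placed the transcript higher in 90%-late, by at least 4-fold on each. The means were 4.84 ± 0.45 for IVT, 2.18 ± 0.06 for 2IVT, 2.65 ± 0.26 for PCR and 5.18 ± 1.58 unamplified (SD, n = 2 slides in each). The IVT slides lay inside the range of the unamplified slides, whereas the 2IVT and PCR slides lay below both of them. The unamplified slides differed from each other by 2.24 on the log2 scale, which is 16.6-fold on replicate 1 against 78.6-fold on replicate 2. Only 2 of 23800 probes differed by more between these slides, and the median difference over all probes was 0.15. This SD was the largest of any regime mean of the 3 genes. On replicate 1 alone, the IVT mean was above the unamplified value, and on replicate 2 alone it was below it.

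AT4G36700 reported log2 ratios of 4.01 and 4.01 on the IVT slides, 2.89 and 4.19 on the 2IVT slides and 3.51 and 2.47 on the PCR slides. On the unamplified slides it reported 6.58 and 7.08. The unamplified slides were the highest and did not overlap with any amplified slide. The means were 4.01 ± 0.00, 3.54 ± 0.91 and 2.99 ± 0.74 for IVT, 2IVT and PCR, and 6.83 ± 0.35 unamplified (SD, n = 2). The ranges of 2IVT and PCR overlapped each other, and both IVT slides lay within the range of 2IVT. The slides agreed closely after IVT, with a difference of 0.003, but not after the amplifications from 50 ng. There the slides differed by 1.29 for 2IVT and 1.04 for PCR, more than for 99.8% and 99.6% of all probes of those regimes. As a fold, the 2IVT slides gave 7.44 and 18.2, and the PCR slides gave 11.4 and 5.53.

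AT5G55410 reported log2 ratios of 5.07 and 4.86 on the IVT slides and 4.28 and 4.92 on the 2IVT slides. It reported 1.09 and 1.04 on the PCR slides, and 7.76 and 7.64 on the unamplified slides. The unamplified slides were the highest, the PCR slides were the lowest, and the IVT and 2IVT slides overlapped between them. The means were 4.97 ± 0.15, 4.60 ± 0.45 and 1.07 ± 0.03 for IVT, 2IVT and PCR, and 7.70 ± 0.09 unamplified (SD, n = 2). A transcript that was 208-fold higher in 90%-late without amplification was thus 31.3-fold higher after IVT, 24.3-fold after 2IVT and 2.09-fold after PCR. The PCR slides differed by only 0.05, so the low ratio was shared by both amplifications of the early sample. Both slides carried the same amplified 90%-late target, so their agreement does not cover that step.

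**Figure D1:**
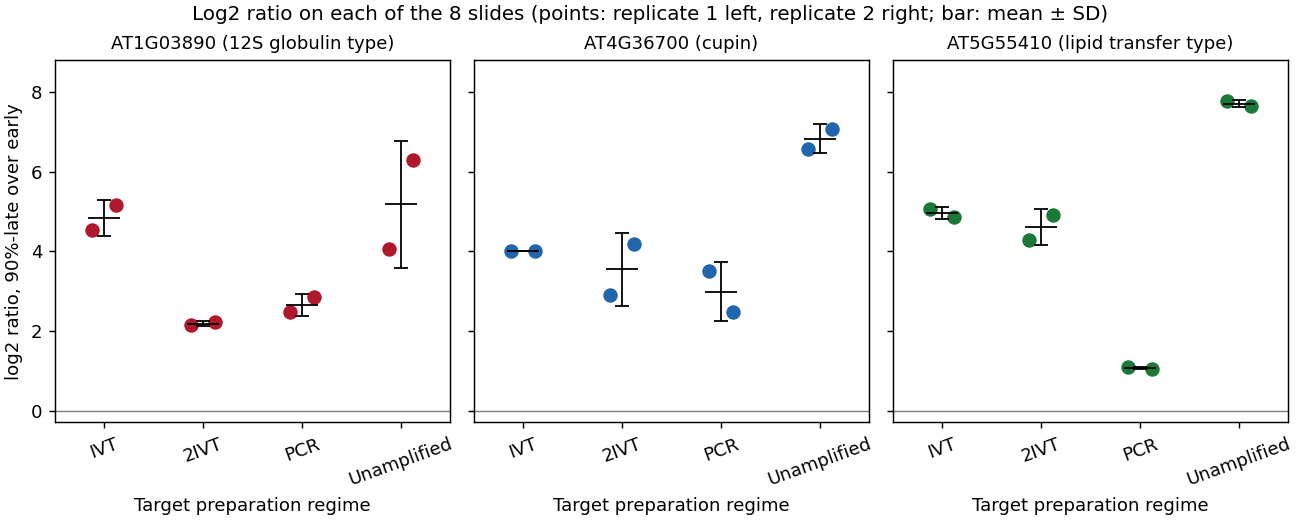
Log2 ratio of 90%-late over early (y axis) on each slide for AT1G03890, AT4G36700 and AT5G55410, by target preparation regime (x axis). Points are single slides, with replicate 1 on the left, and black bars are the mean ± SD of 2 slides; AT5G55410 is at 1.07 after PCR and 7.70 unamplified, and the unamplified slides of AT1G03890 lie 2.24 apart.

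The order of the genes changed with the regime. Unamplified, AT5G55410 had the highest mean, AT4G36700 followed 0.87 lower, and AT1G03890 was 1.65 lower again. The last of these gaps was about as large as the SD of AT1G03890 (1.58), although the slides of the genes did not overlap. After IVT, AT5G55410 and AT1G03890 did not differ beyond their spread (gap 0.13), and AT4G36700 was 0.83 below AT1G03890. After 2IVT, AT5G55410 was 1.06 above AT4G36700, which had an SD of 0.91 there, and AT4G36700 was 1.36 above AT1G03890. After PCR, AT4G36700 and AT1G03890 overlapped (gap 0.34), and AT5G55410 was 1.59 below AT1G03890. The lipid transfer type gene was thus last after PCR, first after 2IVT and unamplified, and level with AT1G03890 after IVT. Each ratio comes from a probe of its own, so the order is one of stage differences and not of transcript levels.

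Ranked by mean ratio towards 90%-late, AT5G55410 stood at place 64 of 23849 probes after IVT and at place 4 of 22263 after 2IVT. After PCR it stood at place 476 of 22916, and unamplified at place 22 of 23800. AT4G36700 took places 186, 46 and 9 in the amplified regimes, in the order IVT, 2IVT and PCR, and place 32 unamplified. AT1G03890 took places 73, 419 and 14 in the same order, and place 72 unamplified. Places do not depend on how far a regime compresses all ratios. By the means, AT1G03890 and AT4G36700 stood highest after PCR and AT5G55410 stood lowest there. Slide by slide, the places of AT1G03890 and AT4G36700 overlapped between regimes. AT1G03890 stood at places 52 and 11 on the PCR slides, against 93 and 47 on the IVT slides and 138 and 44 on the unamplified slides. AT4G36700 stood at 8 and 24 on the PCR slides, and at 144 and 16 on the 2IVT slides. AT5G55410 stood at 465 and 579 on the PCR slides, below its place on every other slide.

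Each amplified mean was below the unamplified mean of the same gene. For AT1G03890 the difference from unamplified came to -0.34 (IVT), -2.99 (2IVT) and -2.52 (PCR). The first of these is smaller than the SD of the unamplified slides. For AT4G36700 the differences were -2.82, -3.29 and -3.84 in the same order, and for AT5G55410 they were -2.74, -3.10 and -6.64. As a share of the unamplified log2 ratio, AT1G03890 kept 93.5% after IVT, 42.2% after 2IVT and 51.2% after PCR. AT4G36700 kept 58.7%, 51.9% and 43.8%, and AT5G55410 kept 64.5%, 59.7% and 13.8%. For comparison, 49 probes had an unamplified log2 ratio of 6 or more, AT4G36700 and AT5G55410 among them. Their median share under IVT was 56.2%, with quartiles of 32.4% and 65.1%. Under 2IVT it was 30.9%, with quartiles of 13.9% and 43.8%, and under PCR it was 22.8%, with quartiles of 17.3% and 28.6%. AT4G36700 lay above the upper quartile after PCR with either PCR slide, but after 2IVT only by its mean and replicate 2, since replicate 1 alone gave 42.4%. AT5G55410 lay above it after 2IVT and below the lower quartile after PCR. Over 94 probes with an unamplified log2 ratio of 4 to 6, AT1G03890 among them, the median share was 92.9%, 57.1% and 25.0%. AT1G03890 lay above the upper quartile of 38.3% after PCR, with 65.4% on unamplified replicate 1 alone and 42.1% on replicate 2 alone. Its place after IVT and 2IVT turned with the unamplified slide, since the IVT share was 119% on replicate 1 and 76.9% on replicate 2, and the 2IVT share 53.8% on replicate 1 and 34.7% on replicate 2. These probes were chosen on the same unamplified means that form the base of the share, so the shares carry no test.

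**Figure D2:**
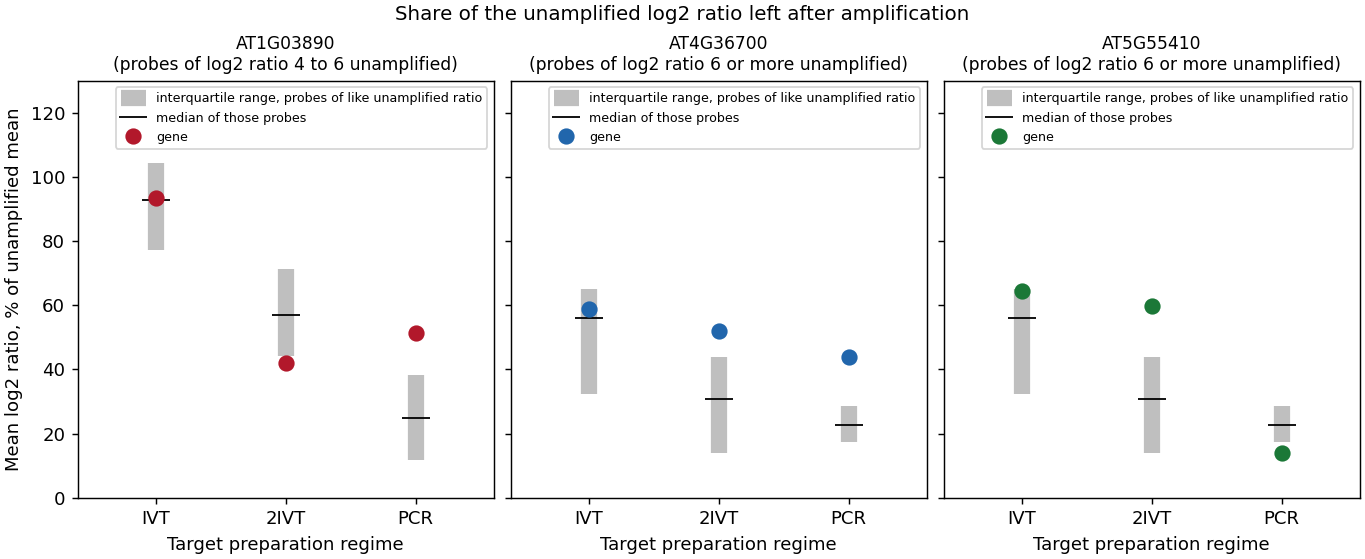
Mean log2 ratio after amplification as a percentage of the unamplified mean (y axis) for each gene (coloured point) after IVT, 2IVT and PCR (x axis), beside the median (black line) and the quartiles (grey bar) of probes with a like unamplified ratio. After PCR, AT5G55410 is at 13.8%, under the grey bar, while AT1G03890 (51.2%) and AT4G36700 (43.8%) are above it.

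All 3 genes were at 2-fold or more towards 90%-late on each of the 8 slides, with a lowest single value of 1.04 for AT5G55410 on a PCR slide. Of 20638 probes with a value on all 8 slides, 193 (0.935%) met this mark, and 103 named loci were among them. Of the other listed cupin and lipid transfer genes, 5 met it, namely AT2G18540, a cupin, AT3G04170, AT3G04180 and AT3G04190, which are germin-like, and AT2G18370, of the lipid transfer family.

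The named genes with the most similar pattern were found by the root mean square difference of the log2 ratio over the 8 slides, among 11270 probes. AT3G04180, a germin-like gene, was nearest to AT1G03890 (0.71), followed by ALPHA-VPE, a vacuolar processing enzyme (AT2G25940, 0.73), and AT1G62290, an aspartic protease (0.77). AT5G09480 was nearest to AT4G36700 (0.75), followed by CYP78A9, a cytochrome P450 (AT3G61880, 0.87), and AT2G18370 (0.87). AT1G62210 was nearest to AT5G55410 (0.72), with means of 5.98, 3.98 and 0.84 after IVT, 2IVT and PCR and 7.43 unamplified. AT1G14950 (0.92) and AT1G03103 (0.96) came next. AT1G14950 also had its lowest ratio after PCR, with means of 5.57, 2.93 and 1.16 in the amplified regimes and 7.37 unamplified. These genes were picked on the same ratios, so a shared low PCR ratio is no separate result. PCR also gave the lowest median, 1.73, over the probes with an unamplified log2 ratio of 6 or more (3.89 for IVT, 2.34 for 2IVT). The distances among the 3 genes themselves were 1.33 for AT1G03890 and AT4G36700, 2.03 for AT1G03890 and AT5G55410, and 1.32 for AT4G36700 and AT5G55410. The slides of a regime share their RNA and a target, so the 8 values are not independent, and a likeness is no sign of a shared role.

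Genes beside them on the chromosome did not share the late ratios, as far as they were measured. Of the 3 annotated genes on each side of AT4G36700, AT4G36680 had means of -0.72, -0.24 and -0.27 after IVT, 2IVT and PCR and -0.31 unamplified, and ATU2AF65A (AT4G36690), which encodes a splicing factor subunit, had -0.29, 0.11 and 0.10, and -0.22 unamplified. AT5G55400, next to AT5G55410, was lower in 90%-late after IVT and 2IVT and unamplified (means -0.39, -0.48 and -0.59), with adjusted p from limma of 0.0167, 0.00689 and 0.00230, and had -0.34 after PCR, which did not pass (0.0513). AT5G55420 had values on both slides of the unamplified regime alone (mean -0.40, adjusted p = 0.0545 from limma). AT5G55430 and AT5G55440, on its other side, had means between -0.26 and 0.26 in the 4 regimes and did not pass in any of them. No value was analysed for the genes beside AT1G03890, which include the cruciferin gene CRU2 (AT1G03880). Further along, AT5G55450 and AT5G55460 stand 4 and 6 genes after AT5G55410 and belong to the same lipid transfer family. They were singled out after their values were seen. AT5G55450 reported -2.12 and -2.05 on the IVT slides, -2.59 and -1.83 on the 2IVT slides, 0.07 and -0.08 on the PCR slides, and -0.71 and -0.57 on the unamplified slides. It was lower in 90%-late after IVT, after 2IVT and unamplified, with adjusted p from limma of 9.30e-07, 9.48e-07 and 0.00684, but not after PCR (0.976). AT5G55460 was lower after IVT and 2IVT (means -0.84 and -0.83, adjusted p from limma 0.000223 and 0.000305). It had -0.22 after PCR and -0.23 unamplified, which did not pass.

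To place the 3 genes among their relatives, 115 other genes of the cupin and lipid transfer families were listed, and 58 of them had a named probe. Each regime was tested with limma over all probes, and genes with a p under 0.05 after Benjamini-Hochberg adjustment were called. The 2 slides of a regime share their RNA, so a call measures technical spread only. In the amplified regimes they also share the 90%-late target, so the spread of that amplification is left out. After IVT, 27 of 55 tested relatives were higher in 90%-late and 20 were lower, beside 22.7% and 32.0% of all probes. After 2IVT, 22 of 49 were higher and 18 lower, beside 20.8% and 26.2%, and after PCR 14 of 50 were higher and 7 lower, beside 15.0% and 16.4%. Unamplified, 24 of 52 were higher and 15 lower, beside 17.6% and 26.0%. As percentages, 49.1%, 44.9% and 28.0% of the relatives were higher after IVT, 2IVT and PCR, and 46.2% unamplified. Their median log2 ratio was 0.33, 0.22 and 0.03, and 0.15 unamplified, while that of all probes was -0.08, -0.04 and -0.01, and -0.07 unamplified. Without PCR replicate 2, the relatives lower after PCR numbered 2.

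Of 8 listed cupins other than the germin-like, 4 had values on both slides, and 2 of them were higher in 90%-late in every regime. Over all probes the share higher was 22.7%, 20.8% and 15.0% after IVT, 2IVT and PCR, and 17.6% unamplified. PAP85 (AT3G22640), a vicilin-like protein, reported 4.25 and 3.96 on the IVT slides, 1.48 and 1.49 on the 2IVT slides, 0.56 and 0.60 on the PCR slides, and 6.20 and 7.08 on the unamplified slides. Close to AT4G36700 without amplification, it fell short of it after 2IVT and PCR. Its adjusted p from limma was 1.03e-08, 4.06e-05 and 0.0277 for IVT, 2IVT and PCR, and 4.18e-10 unamplified. The PCR call was lost without either PCR slide (adjusted p = 0.156 and 0.189). AT2G18540, a cupin, had means of 4.92 ± 0.20, 4.02 ± 0.16 and 2.11 ± 0.25, and 3.57 ± 0.22 unamplified (SD, n = 2), and passed in all 4 regimes. Its ratio was higher after IVT than unamplified, by 1.35 (adjusted p = 0.000765 from limma). AT2G28680, of the same superfamily, was lower in 90%-late after IVT (-1.42), after 2IVT (-0.98) and unamplified (-0.91), and had 0.06 after PCR. AT1G07750 passed in no regime, with means between -0.15 and 0.33.

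Germin-like proteins are mostly cupins of the cell wall and are not seed storage proteins. After IVT, 10 of 17 were higher in 90%-late and 4 were lower, and after 2IVT 10 and 3 of 15. After PCR 5 were higher and 2 lower of 14, and unamplified 9 and 3 of 17. The lower calls made up 23.5%, 20.0% and 14.3% of the genes after IVT, 2IVT and PCR and 17.6% unamplified, no more than the 32.0%, 26.2% and 16.4%, and 26.0% unamplified, over all probes. The higher calls stood beside 22.7%, 20.8% and 15.0%, and 17.6% unamplified, over all probes. All 5 listed genes of a run on chromosome 3, from AT3G04150 to AT3G04200, were higher in 90%-late in every regime. AT3G04170 had means of 3.04 ± 0.07, 2.61 ± 0.17 and 2.23 ± 0.40, and 7.80 ± 0.46 unamplified (SD, n = 2), the last of these close to the mean of AT5G55410. AT3G04190 had 5.24 ± 0.38, 3.33 ± 0.06 and 1.55 ± 0.15, and 5.84 ± 0.50 unamplified. AT3G04180 had 4.73, 2.58 and 1.59, and 4.61 unamplified, and AT3G04200 had 3.73, 2.47 and 0.78, and 4.23 unamplified. The largest adjusted p from limma among the regimes of these 4 genes was 0.000532, for AT3G04200 after PCR. Probe sequences were not compared, so how far probes of this run report each other's transcripts was not tested.

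**Figure D3:**
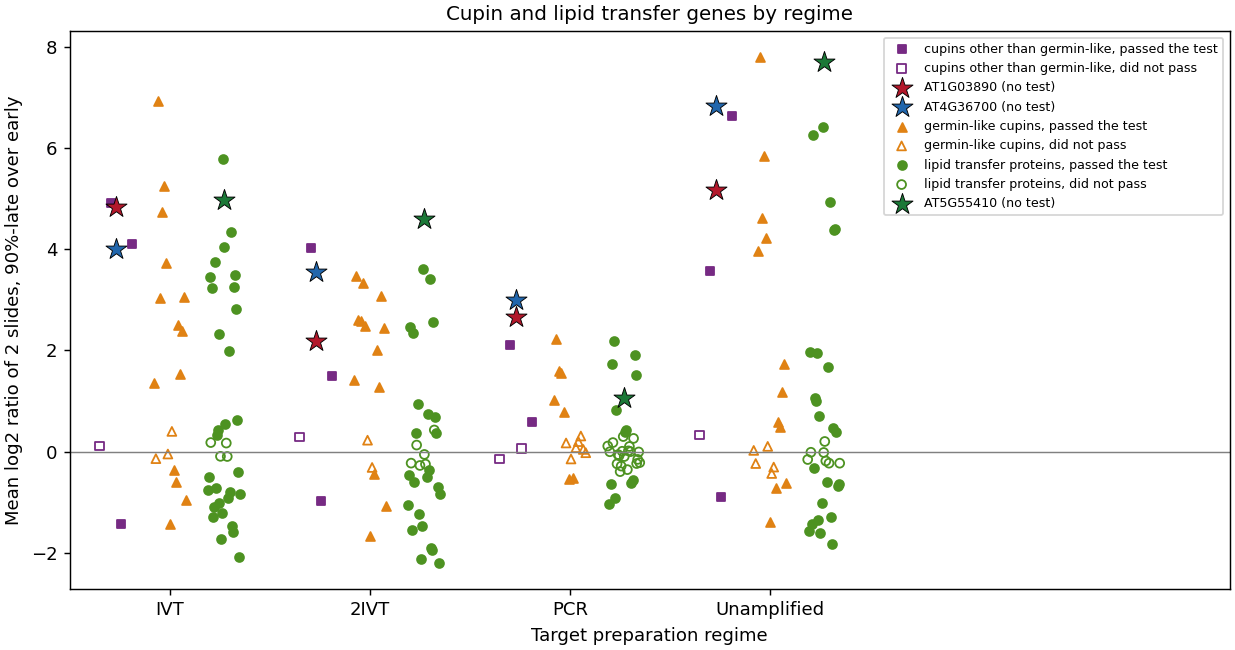
Mean log2 ratio of 2 slides, 90%-late over early (y axis), of each measured cupin and lipid transfer gene by regime (x axis), with filled symbols for genes that passed the limma threshold, open symbols for those that did not, and stars for AT1G03890, AT4G36700 and AT5G55410, which were not tested. The lipid transfer genes spread to both sides of 0, from -1.83 to 6.41 unamplified without AT5G55410, while PAP85 reaches 6.64 and AT3G04170 reaches 7.80.

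The lipid transfer family had calls in both directions. After IVT 15 of the 34 tested relatives of AT5G55410 were higher in 90%-late and 15 lower, and after 2IVT 10 and 14 of 30. After PCR 7 were higher and 5 lower of 32, and unamplified 13 and 11 of 31. Over all probes, the share higher was 22.7%, 20.8% and 15.0% in the amplified regimes and 17.6% unamplified, and the share lower was 32.0%, 26.2% and 16.4%, and 26.0% unamplified. The share of the family lower after PCR, 15.6%, was near that of all probes. AT3G58550, of this family, was the highest of these relatives unamplified, with 6.31 and 6.50. It had 5.51 and 6.06 after IVT, 3.44 and 3.76 after 2IVT, and 0.88 on the PCR slide that gave a value. AT4G30880, another member of the family, had means of 4.34 ± 0.20 and 3.41 ± 0.09 after IVT and 2IVT and 4.93 ± 0.16 unamplified (SD, n = 2), whereas the PCR slides gave -0.13 and 0.13. Like AT5G55410, it kept a high ratio after 2IVT and little of it after PCR, with a difference between PCR and unamplified of -4.93 (adjusted p = 2.70e-08 from limma). AT2G18370 behaved otherwise, with 3.74 ± 0.27, 2.34 ± 0.11 and 2.19 ± 0.14 in the amplified regimes and 6.26 ± 0.02 unamplified. AT5G38170 had 2.83 ± 0.89, 0.69 ± 0.08 and 1.51 ± 0.29, and 4.40 ± 0.09 unamplified. These genes passed wherever both slides gave a value, except AT4G30880 after PCR (adjusted p = 0.993 from limma). The 2IVT call of AT5G38170 (adjusted p = 0.0277 from limma) was lost without either 2IVT slide (0.188 and 0.108).

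The ratios of the relatives were also tested for a difference between each amplified regime and the unamplified one. The 3 differences share the unamplified slides. Both slides of an amplified regime also carried the same amplified late target, so every such test leaves out the spread of that amplification. For IVT, 11 of 52 relatives had a higher and 12 a lower ratio than unamplified, beside 8.05% and 9.06% of all probes. For 2IVT it was 7 and 18 of 49, beside 8.18% and 8.78%, and for PCR 8 and 20 of 48, beside 11.1% and 9.80%. A higher ratio than unamplified is not always a stronger late one, since a negative ratio that moved towards 0 also counts. The median difference was -0.04, -0.28 and -0.26 over the relatives, and -0.00, 0.02 and 0.05 over all probes. Without unamplified replicate 1 or IVT replicate 2 the relatives with a lower ratio after IVT numbered 7, and without unamplified replicate 2 or IVT replicate 1 they numbered 5. Without either 2IVT slide, the relatives with a higher ratio after PCR numbered 13. Relatives with a lower ratio in every amplified regime were AT3G04170, AT3G04200, AT2G18370, PAP85, AT5G38170, AT4G30880 and AT3G52130, a lipid transfer gene. For AT3G04170 the differences were -4.76, -5.20 and -5.58 in the order IVT, 2IVT and PCR. For AT2G18370 they were -2.52, -3.92 and -4.07. Adjusted p from limma was at most 6.39e-06 for both of these genes. For PAP85 they were -2.53, -5.15 and -6.06 (adjusted p from limma at most 5.98e-05). The weakest of these calls was AT3G04200 for IVT (-0.50, adjusted p = 0.0473 from limma).

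**Figure D4:**
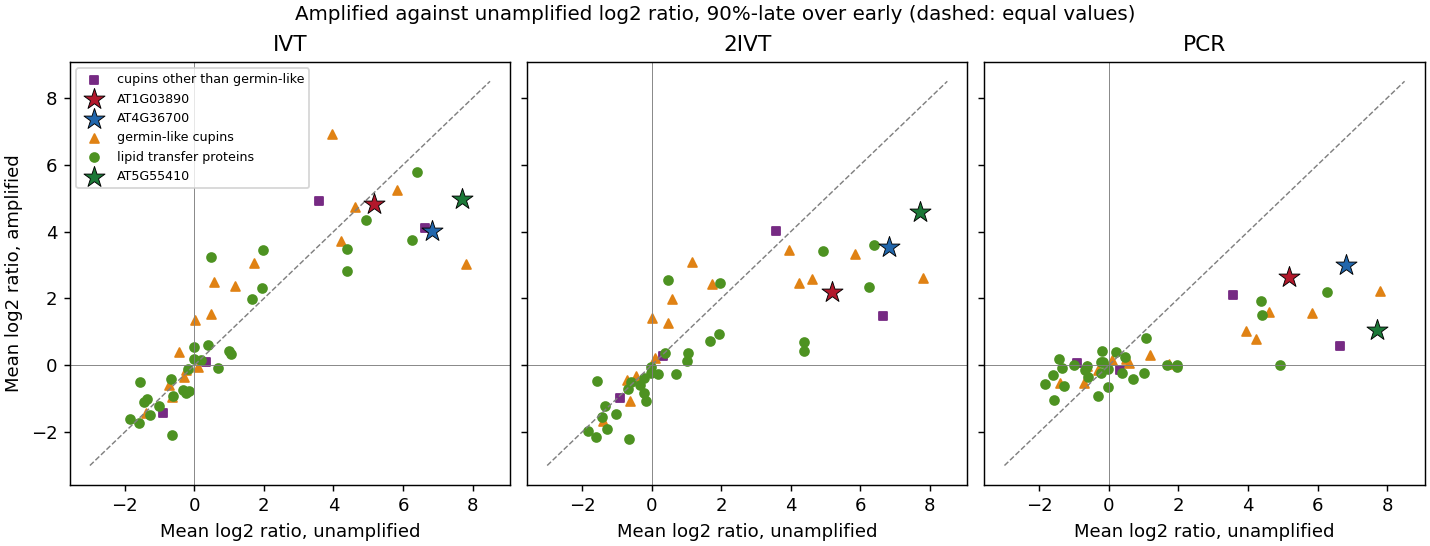
Mean log2 ratio after IVT, 2IVT or PCR (y axes) against the unamplified mean (x axis), both as 90%-late over early, for the measured genes of the cupin and lipid transfer families and for AT1G03890, AT4G36700 and AT5G55410 (stars). The dashed line marks equal values, and the highest unamplified genes lie under it in each panel. After PCR AT5G55410 (1.07) lies under AT1G03890 (2.65) and AT4G36700 (2.99).

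Of 8 listed genes of storage protein sorting and processing, 4 had a named probe, all of them vacuolar processing enzymes, the family that cuts 12S precursors. ALPHA-VPE was higher in 90%-late in every regime, with means of 5.08 ± 0.11, 2.71 ± 0.10 and 2.02 ± 0.09, and 5.14 ± 0.07 unamplified (SD, n = 2, adjusted p from limma at most 1.55e-06). Its drop between unamplified and 2IVT was -2.42 (adjusted p = 2.49e-06 from limma), beside -2.99 for AT1G03890. BETA-VPE (AT1G62710), the main enzyme of this kind in seeds, was higher after IVT (3.61 ± 0.01), 2IVT (2.78 ± 0.14) and PCR (0.74 ± 0.42), with adjusted p from limma of 2.42e-08, 2.82e-07 and 0.00426. It had 3.01 on unamplified replicate 2 and no value on replicate 1, so it was not tested there. GAMMA-VPE (AT4G32940) had 0.75, 0.06 and 0.40, and 2.62 unamplified, and passed except after 2IVT. Its PCR call was lost without PCR replicate 2 (adjusted p = 0.119 from limma). DELTA-VPE (AT3G20210) passed only unamplified, with 0.71 ± 0.18. Of 11 listed regulators of seed maturation, only BZIP53 (AT3G62420), a transcription factor that activates storage protein genes, had a named probe. The others may have probes without a symbol. It was higher after IVT (0.47 ± 0.16, adjusted p = 0.00576 from limma) and unamplified (0.37 ± 0.04, adjusted p = 0.0236), but with adjusted p between 0.124 and 0.189 without IVT replicate 1 or either unamplified slide. None of the 5 listed 2S albumin genes had a named probe, nor did the other cruciferin genes listed.

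Few markers of the other silique tissues had a named probe with values, which is what measured means here. A further 12373 probes had no symbol, so markers not counted may still have a probe on the array. Of 8 listed seed coat markers 3 were measured, and all were lower in 90%-late unamplified (-0.90 to -0.34), 2 after IVT, 1 after 2IVT and 1 after PCR. Of 8 listed endosperm markers 2 were measured. RR21 (AT5G07210) was higher after IVT and unamplified (2.47 and 1.86) and was not tested after 2IVT and PCR. PHE1 (AT1G65330) was lower after IVT and 2IVT (-0.59 and -0.47) and did not pass after PCR (0.02) or unamplified (-0.25). Of 15 photosynthesis markers of the silique wall 1 was measured. It was lower after IVT (-0.50) and unamplified (-0.33) and did not pass after 2IVT (0.14) or PCR (0.24). The part of tissue makeup in the ratios of AT1G03890, AT4G36700 and AT5G55410 was not tested, and ratios do not show whether a tissue's markers are present.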

How the data were processed

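Siliques were compared by 2-colour hybridization to long oligonucleotide arrays, 2 slides for each of 4 target preparation regimes. Each deposited value was read as a log2 ratio, with the base inferred from the authors' use of log2 ratios. The authors read the spots with GenePix 4.1 and normalized each slide with SNOMAD routines run in S-PLUS, first globally, then locally across the slide and across the range of intensities. Whether the trimming of spots under 3x background, the interpolation of 100 units for a low channel and the replacement of saturated spots had been applied to the deposited values is not stated in any source used here. These steps bear most on very high ratios. Intensities were not used, so depth and distance above background are unknown.

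The sign was turned and nothing else was changed. Probes were named through the platform annotation and RefSeq (assembly TAIR10.1), which matched 14485 of 14539 probes with a symbol to 14228 loci. The 12373 probes with no symbol could not be matched, so a gene without a named probe may still be on the array. Each regime mean and each difference from unamplified was fitted with limma (lmFit, eBayes) over all 8 slides, without a block, for probes with a value on every slide concerned, with two-sided p adjusted by Benjamini-Hochberg at 0.05. Fits were tested on simulated data. An exact permutation test of 2 slides against 2 cannot go below p = 0.333. The members and the 10 lists of 173 genes were chosen with earlier results of these data known. Named genes were the members, the called genes furthest from 0 without amplification, up to 4 for a list, the 3 genes nearest to each member in pattern, and 3 chromosome neighbours on each side. Alternatives were median centring, scaling, probes on all 8 slides, separate fits, a replicate block, a 2-fold requirement and leaving out each slide. Shares of the unamplified ratio from single slides were added after seeing the data. Fits ran in limma 3.58.1 under R 4.3.3. Tables were made in Python 3.11.15 with pandas 2.3.3 and numpy 2.4.6, and plots with matplotlib 3.10.9.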

Additional observations from a re-analysis of the deposited data

Results flagged for a closer look

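In each amplified regime, the relative of the 3 genes whose log2 ratio differed most from the unamplified one, in each direction, is given here with limma's test of the difference itself. For IVT these were AT3G04150, a germin-like gene (2.97 higher than unamplified, adjusted p = 5.71e-06), and AT3G04170 of the same run (-4.76, adjusted p = 9.26e-07). For 2IVT they were AT5G13900, of the lipid transfer family (2.09, adjusted p = 4.59e-05), and AT3G04170 again (-5.20, adjusted p = 2.57e-07). For PCR they were AT1G73560, of the lipid transfer family (1.61, adjusted p = 0.000822), and PAP85 (AT3G22640, -6.06, adjusted p = 6.13e-08). AT1G73560 had means of -1.43 unamplified and 0.18 after PCR, so its difference reflects a lost early ratio and not a stronger late one. Both slides of the amplified regime lay on the same side of both unamplified slides in each of these cases. The slides of an amplified regime carried the same amplified late target, so these tests leave out the spread of that amplification.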

How the results depend on the processing

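AT1G03890, AT4G36700 and AT5G55410 stayed higher in 90%-late in each regime on centring, on scaling and on leaving out each slide. Scaling the slides to the same median absolute deviation gave 4.11 after IVT and 3.16 after PCR for AT1G03890, 3.43 after IVT and 7.25 unamplified for AT4G36700, and 4.23, 1.28 and 8.19 after IVT, after PCR and unamplified for AT5G55410. Centring on the median gave 4.09 after IVT for AT4G36700. The replicate numbers did not pair the slides (r between -0.06 and 0.031), and the fit with the replicate number as a block covered the counts of calls and the named relatives, not the 3 genes. With the block, 26 relatives were higher and 19 lower after IVT, 16 were lower unamplified and 11 had a lower ratio after IVT than unamplified, and their other counts were as without it. No named relative changed its call in a regime.

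For the relatives, requiring 2-fold as well left 10 lower under IVT and 10 under 2IVT, 9 higher and 1 lower under PCR, 8 lower unamplified, 5 lower for IVT minus unamplified and 5 higher for PCR minus unamplified. Scaling left 7 with a higher ratio after IVT than unamplified, so 35.0% of the relatives called there were higher against 47.8% unscaled. Leaving out a slide gave 5 to 13 lower for IVT minus unamplified, 6 to 13 higher for PCR minus unamplified and 2 to 8 lower after PCR.

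Over all probes, requiring 2-fold left 2127 higher and 1955 lower under IVT, 1532 and 1251 under 2IVT, 558 and 241 under PCR, and 1469 and 1013 unamplified. For the differences from unamplified it left 746 higher and 553 lower for IVT, 506 and 644 for 2IVT and 556 and 883 for PCR. Scaling gave 1108 higher and 1295 lower for IVT minus unamplified, and separate fits gave 1022 and 1184 for 2IVT minus unamplified. Leaving out a slide gave 4985 to 8085 probes lower after IVT, 1794 to 3887 higher and 1904 to 4325 lower after PCR, and 2772 to 4520 higher and 3549 to 6783 lower unamplified. For the differences it gave 893 to 2217 higher and 784 to 2556 lower for IVT, 868 to 2432 and 889 to 2425 for 2IVT, and 1177 to 3024 and 1261 to 2520 for PCR. A fit without a slide has fewer residual degrees of freedom, and the lone slide of its regime is assumed to vary like the others.

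Ratios near 0 after PCR changed sign, namely AT4G30880 (0.010 centred, 0.010 scaled, and from -0.13 to 0.13 on leaving out a slide), AT2G28680 (from -0.023 to 0.15) and DELTA-VPE (AT3G20210, from -0.0052 to 0.14). DELTA-VPE passed after IVT when centred or fitted separately (adjusted p = 0.0246 and 0.0314 from limma). By Pearson's r over the 8 slides in place of the root mean square difference, 0 of the 3 nearest genes stayed nearest for each of the 3 genes. Signal over background is unknown here, so how far dim channels limit these ratios cannot be given.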
